A study of Mus musculus with 221 samples.

Results

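Arterial identity was followed here through 10 genes that mark or build arterial endothelium: the connexins Gja4 and Gja5, the ligand Efnb2, the receptors Unc5b and Cxcr4, the transcription factors Sox17, Sox18 and Sox7, the kinase Bmx and the growth factor Vegfc. They were chosen by symbol, and every transcript model carrying one of these symbols was summed, which gave 27 transcripts of the 10 genes out of 278369 transcripts of 78001 gene symbols. Levels are given as CPM (estimated counts scaled to an equal total over all genes) after summing over the cells of a cluster.

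Hemogenic endothelium (HE) is the endothelium of the embryo that gives rise to blood cells, and it passes through an endothelial-to-hematopoietic transition in which endothelial genes are lost and blood genes are gained. In the aorta-gonad-mesonephros region (AGM) it lies in the wall of the dorsal aorta, an artery, whereas in the yolk sac (YS) it is found in arteries and in the vascular plexus. Arterial fate is set by VEGF and Notch signalling together with transcription factors of the SoxF family, and venous fate by the nuclear receptor Nr2f2. Flow later maintains the arterial programme, in which neighbouring endothelial cells are coupled by connexins and arterial cells are kept apart from venous ones by ephrin-B2.

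The long reads came from 221 single cells of mouse embryos carrying a Gfi1-GFP and a Runx1b-RFP reporter on a C57BL/6JOlaHsd background crossed with CD-1 females. Sorted AGM cells were RUNX1+ and CDH5+ but KIT-, sorted YS cells were RUNX1+, CD31+ and KIT+, and GFI1+ as well as GFI1- cells, all without CD41 and CD45, were taken from both tissues. The study's clusters order each tissue from early to late HE: c3 and c4 (HE-AGM), a1 and a2 (HE-YSA, of YS arteries) and b2 and b3 (HE-YSP, of the YS plexus), followed by c5, labelled HE-Hb, and by the YS progenitors p1, skewed to lymphoid and myeloid fates, and p2, skewed to erythroid and myeloid fates. No cell received a treatment. The AGM cells are labelled with a stage in 1 case (E10.5), and the YS cells used came from E9, E9.5 and E10.5. Cells of E10.5 were 14 of 23 in a1, 21 of 29 in a2, 13 of 25 in b2 and 7 of 24 in b3. Cells of E9 were 10 in b2 and 6 in b3 but 1 each in a1 and a2, so stage was not balanced between these clusters.

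A minimum total of 17595 estimated counts per cell left 208 cells, with 17 to 29 in each cluster, spread over 3 nanopore runs that each held cells of every cluster. Totals ran from 18131 to 125339 counts, with a median of 59311 for HE-AGM, of 34483.5 for HE-YSA and of 33297 for HE-YSP, so that rare transcripts had more chances of being seen in AGM cells. cDNA of AGM and of YS cells was made in separate projects, with 1 a1 cell as the exception, and KIT was absent from the former and present on the latter by the sort, so tissue, sort and project cannot be told apart. Library names of 2 further YS cells contain AGM. Each cell is a GEO sample and no embryo or litter is named for it, so every cluster counts as 1 sample, differences between clusters have no replicate check, and no test was run. Intervals are exact 95% intervals on rounded counts, and they cover counting error only, since amplified reads without molecular identifiers are not independent molecules. The clusters were drawn by the study on short reads of cDNA from the same wells and 7 of the genes (Bmx, Gja5, Gja4, Unc5b, Efnb2, Cxcr4 and Vegfc) stand in the arterial signature it used, so their levels across clusters describe these cells and are not independent of how the clusters came about.

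The endothelial and blood marker lists placed the clusters of each series in the labelled order along the transition. Of 8 endothelial markers (Cdh5, Pecam1, Kdr, Tek, Emcn, Eng, Esam, Egfl7) all were detected in every cluster except p2, where 7 were. Their summed level was 2443, 1261 and 458 CPM in c3, c4 and c5, 2218, 1364 and 821 CPM in a1, a2 and p1, and 2455, 1264 and 504 CPM in b2, b3 and p2. The summed level of 8 blood markers ran the other way in each series, from 700 to 1351 CPM, from 439 to 1308 CPM and from 259 to 1025 CPM. Much of this was Coro1a, which went from 109 to 640 CPM, from 159 to 780 CPM and from 57.6 to 666 CPM. Myb and Spi1 also ended higher in each series, and so did Ptprc, though on 4 counts in 2 cells in p2. Spn ended higher in the AGM (7.22 to 18.5 CPM) but had only 1 count each in p1 and p2. Others ended lower: Cd44 in the AGM (110 to 37.1 CPM) and the YS arteries (123 to 39.6 CPM), Laptm5 in the AGM (242 to 206 CPM) and Itga2b in the plexus (51.7 to 25.9 CPM). The YS endothelial markers Lyve1, Stab2, Mrc1 and Maf summed to 1871 CPM in b2 but to 53.5 CPM in a1 and 1.03 CPM in c3. The 5 macrophage markers summed to 457 CPM in b2 and 486 CPM in p1 against 8.25 CPM in c3, but nearly all of this was Fcer1g, an Fc receptor subunit found in many blood cells (447 CPM in b2 and 484 CPM in p1), while the defining markers C1qa, C1qb and Adgre1 were at 0 in every cluster. The 8 smooth muscle and mesenchyme markers reached 175 CPM in c5, of which 172 CPM was Dlk1, and at most 29.4 CPM elsewhere. Erythroid markers were highest in c3 at 357 CPM, with up to 11841 CPM in 1 cell. Summed megakaryocyte markers stayed between 1.44 and 52.9 CPM and YS endoderm markers at or below 2.58 CPM. The part of these other lists in the values below was not tested. The 5 hemogenic markers summed to 396 CPM in c3, 393 CPM in a1 and 92.8 CPM in b2. Among them Runx1, the transcription factor that drives the transition, was nearly absent from b2 at 1.18 CPM against 44.9 CPM in c3.

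Gja4 and Gja5 encode connexin 37 and connexin 40, the gap junction proteins that couple arterial endothelial cells, and both were at their highest in the early clusters of the AGM and of the YS arteries. Gja4 lies on the minus strand at chr4:127311421-127314039 and Gja5 on the plus strand at chr3:96904693-97077416 (GRCm38). Their promoters are shown because both genes are read in the same early arterial clusters but part in the plexus, where Gja4 is read and Gja5 nearly absent. RefSeq start regions of GRCm38.p6 were found for 7 of the 10 genes, not for the SoxF genes, and capitals mark the SOX letters ACAAAG or ACAATG and the ETS letters AGGAAG, searched on both strands.
Gja4 promoter, chr4:127313990-127314289, minus strand: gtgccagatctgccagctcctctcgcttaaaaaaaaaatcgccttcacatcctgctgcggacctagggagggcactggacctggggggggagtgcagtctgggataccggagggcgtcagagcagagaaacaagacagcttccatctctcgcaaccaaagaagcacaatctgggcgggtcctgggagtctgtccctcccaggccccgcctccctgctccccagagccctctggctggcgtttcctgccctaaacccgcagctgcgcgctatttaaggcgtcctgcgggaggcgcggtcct
Gja5 promoter, chr3:97032152-97032451, plus strand: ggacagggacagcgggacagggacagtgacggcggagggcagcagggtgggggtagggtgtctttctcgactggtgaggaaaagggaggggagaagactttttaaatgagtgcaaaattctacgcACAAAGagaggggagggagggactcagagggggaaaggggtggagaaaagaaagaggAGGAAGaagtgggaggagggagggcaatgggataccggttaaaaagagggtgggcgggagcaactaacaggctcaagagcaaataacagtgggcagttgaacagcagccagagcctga
The Gja4 window held neither motif and the Gja5 window held 1 of each, which do not overlap. Among the 7 windows, 3 held a SOX match (Gja5, Bmx and Unc5b) against 28.6% of 32851 mouse promoters of the same length, and 1 held an ETS match against 35.4%. No window held the RBPJ letters GTGGGAA, present in 6.38% of promoters, or the E-box CACGTG, present in 7.15%.

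Gja4 was read in every a1 cell, from 145 to 2077 CPM per cell with a median of 1272 CPM. In c3 it was read in 27 of 29 cells, with a median of 503 CPM and a highest value of 2718 CPM. The a1 cells therefore all lay above 0 while c3 held cells from none to the highest level of all, and the ranges of both clusters overlapped. Summed over cells, Gja4 stood at 1153 CPM [1081, 1228] in a1 (1279, 920 and 1212 CPM in the 3 runs) and at 597 CPM [563, 632] in c3 (372, 839 and 640 CPM). The plexus cluster b2 followed with 224 CPM [194, 259] and a2 with 204 CPM [178, 233], 2 neighbours whose counting intervals overlapped. In b2 the median cell held no Gja4 count, 12 of 25 cells held at least 1, and 41.9% of the counts lay in cell 23, without which the level was 141 CPM. The later clusters were low, at 43.9 CPM in c4, 12.2 CPM in b3 (all in 1 of 24 cells), 6.09 CPM in p1, 4.64 CPM in c5 and 1.37 CPM in p2.

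Gja5 was at almost the same level in a1 and c3. In a1 the cells ran from 0 to 2179 CPM with a median of 333 CPM and 19 of 23 cells held a count, and in c3 they ran from 0 to 2107 CPM with a median of 405 CPM and 26 of 29 cells held one. The summed levels of 463 CPM [418, 511] and 450 CPM [420, 481] had overlapping intervals, and the runs gave 485, 497 and 422 CPM in a1 and 405, 567 and 424 CPM in c3. It was lower in a2 at 70.4 CPM, with counts in 8 of 29 cells, and in c4 at 26.6 CPM, with counts in 7 of 20 cells, 43.2% of them in a single cell. The plexus differed from both: all 9 counts of b2 lay in cell 20, b3 held 1 count, and c5, p1 and p2 held none. A count of 0 in p2, whose 20 cells held 732446 counts, still allows a level of up to 4.10 CPM.

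**Figure D1:**
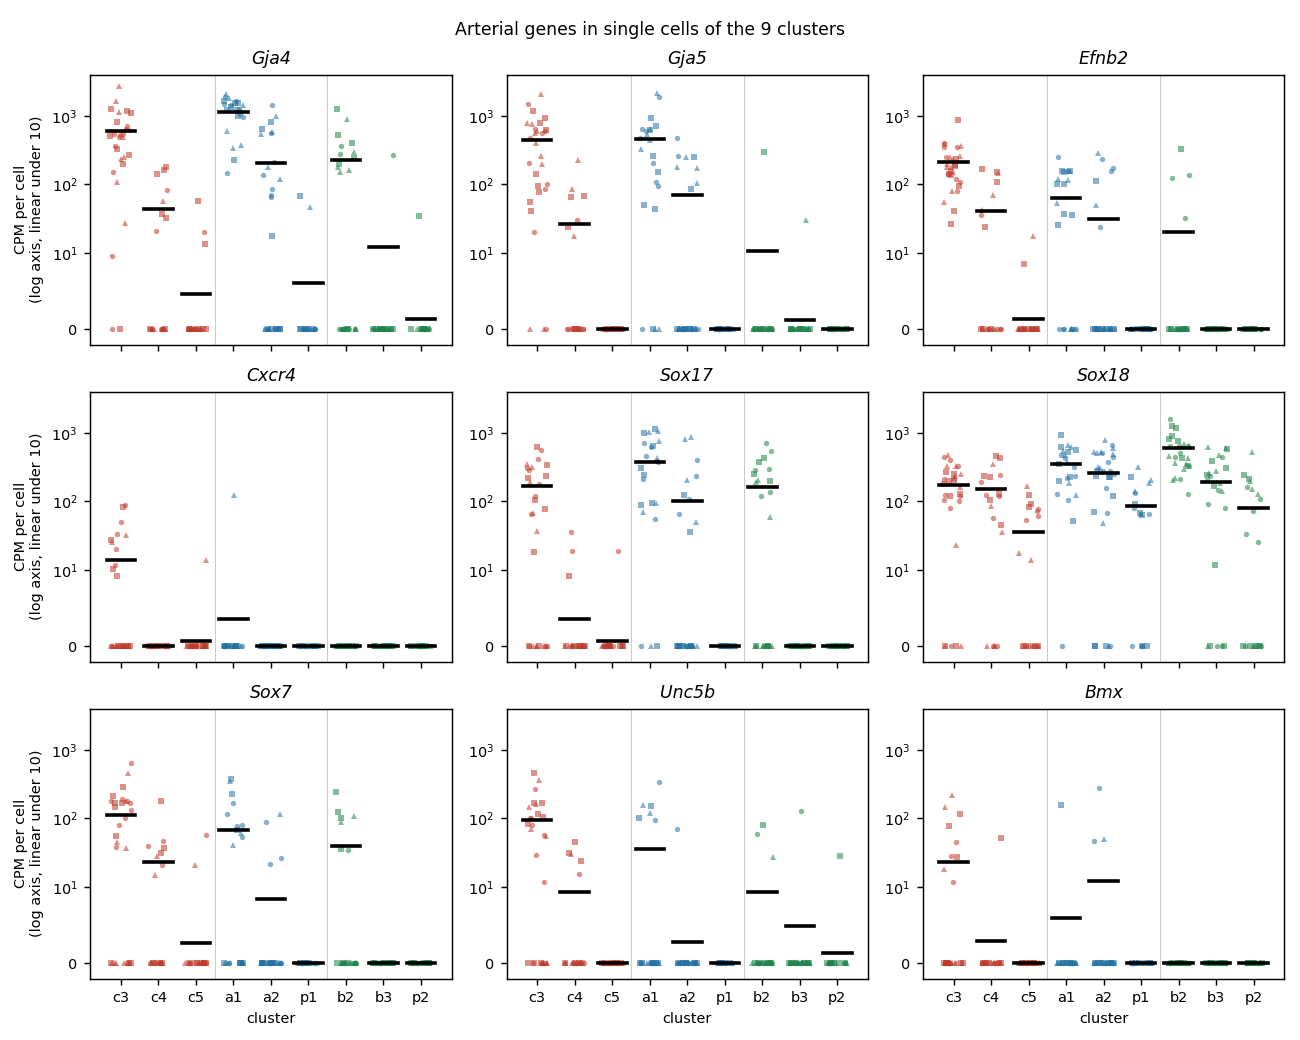
CPM per cell of 9 of the genes, Vegfc left out (log axis, linear under 10 CPM), in the 9 clusters, with red for AGM, blue for the a clusters and p1 and green for the b clusters and p2. Each point is a cell (circles, triangles and squares for runs 1, 2 and 3) and the black bar is the level summed over cells, which for Gja4 stands at 1153 CPM in a1 and 597 CPM in c3 and for Sox18 at 611 CPM in b2.

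Efnb2 encodes ephrin-B2, the membrane ligand that marks arterial endothelium and binds EphB4 on veins, and unlike the connexins it was higher in c3 than in a1. Every one of 29 c3 cells held Efnb2, from 26.2 to 859 CPM with a median of 181 CPM, whereas the 23 a1 cells ran from 0 to 254 CPM with a median of 37.7 CPM and 14 held a count. The summed level was 212 CPM [192, 233] in c3, between 191 and 224 CPM in its runs, and 63.1 CPM [47.2, 82.5] in a1, between 41.4 and 87.4 CPM in its runs. With each cell thinned to 18000 counts, 91.9% of c3 cells and 53.1% of a1 cells would be expected to hold a count, so the shares differed at equal depth as well. In c4 8 of 20 cells held Efnb2 (41.0 CPM), in a2 7 of 29 (31.0 CPM) and in b2 4 of 25 (19.98 CPM, of which 58.8% lay in cell 20). Neighbours in the order a1, c4, a2 and b2 had overlapping intervals. Efnb2 had 2 counts in c5 and none in b3, p1 or p2.

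Unc5b, the netrin receptor that restrains sprouting of arterial endothelium, had a like distribution at lower counts. It was read in 18 of 29 c3 cells, from 0 to 463 CPM with a median of 56.8 CPM, and in 6 of 23 a1 cells, with a median of 0 and a highest cell of 339 CPM. The summed level was 94.4 CPM [81.2, 109] in c3, 35.7 CPM [24.1, 51.0] in a1, and 9.35 CPM or less in c4, a2, b3 and p2, with 9.40 CPM in b2. Its 4 counts in b3 lay in 1 cell, as did the 3 counts in a2, and c5 and p1 held none.

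Cxcr4, the receptor for the chemokine Cxcl12, was sparse. It had 27 counts in c3 (13.9 CPM [9.18, 20.3]), spread over 11 of 29 cells with a highest cell of 89.4 CPM, 3 counts in 1 cell of a1, 1 count in c5 and none in the other 6 clusters. The share of c3 cells with a count, 37.9%, would be 18.1% at 18000 counts per cell. Its ligand gene Cxcl12 stood at 3.61 CPM in c3, 8.33 CPM in a1 and 0 in the other clusters, and the second Cxcl12 receptor gene, Ackr3, was at 0 in every cluster.

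Sox17, Sox18 and Sox7 form the SoxF family of transcription factors, which act in arterial specification and in hemogenic endothelium, and the 3 paralogues did not share a distribution. Sox17 was highest in a1, with counts in 20 of 23 cells, a median of 382 CPM and a highest cell of 1153 CPM. In c3 19 of 29 cells held it, with a median of 78.6 CPM and a highest cell of 628 CPM, and in b2 13 of 25 cells, with a median of 60.1 CPM and a highest cell of 723 CPM. All 3 early clusters thus held cells without Sox17 beside cells with a high level. The summed level was 370 CPM [330, 414] in a1, 169 CPM [151, 188] in c3 and 163 CPM [137, 193] in b2, the last 2 with overlapping intervals. The runs of b2 gave 211, 51.7 and 209 CPM. Sox17 stood at 100 CPM in a2 and 3.60 CPM in c4, had 1 count in c5 and none in b3, p1 or p2.

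Sox18 was read in every cluster at 35.8 CPM or more, and it was highest in the plexus. Gja4 was also read in every cluster, but at as little as 1.37 CPM, in p2. Every b2 cell held Sox18, from 128 to 1607 CPM with a median of 460 CPM, and the b2 level of 611 CPM [560, 666] lay above those of a1 at 354 CPM [315, 397] and a2 at 260 CPM [230, 293]. The b3 level of 191 CPM, the c3 level of 175 CPM and the c4 level of 150 CPM followed, with overlapping intervals between neighbours. Sox18 was still read in 12 of 17 p1 cells (86.8 CPM), 11 of 20 p2 cells (79.2 CPM) and 10 of 21 c5 cells (35.8 CPM). No cluster was free of it, and b2 alone had it in all of its cells.

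Sox7 was highest in c3 at 114 CPM [99.5, 130], with counts in 19 of 29 cells, a median of 81.5 CPM and a highest cell of 642 CPM. The a1 level was 67.8 CPM [51.4, 87.9] with counts in 11 of 23 cells, and b2 stood at 40.0 CPM, of which 44.1% lay in cell 23. It was at 23.01 CPM in c4, 8.45 CPM in a2 and 2.65 CPM in c5, and b3, p1 and p2 held none.

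Bmx encodes a Tec-family kinase of arterial endothelium and Vegfc the ligand of VEGFR3, and both were near the limit of these libraries. Bmx had 45 counts in 9 of 29 c3 cells (23.2 CPM [16.9, 31.1]), 13 counts in 3 a2 cells, 76.9% of them in cell 1, 5 counts in 1 a1 cell, 4 counts in 1 c4 cell and none elsewhere. Vegfc had 8 counts in all, at most 2 in any cluster, and its levels were not read further.

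**Figure D2:**
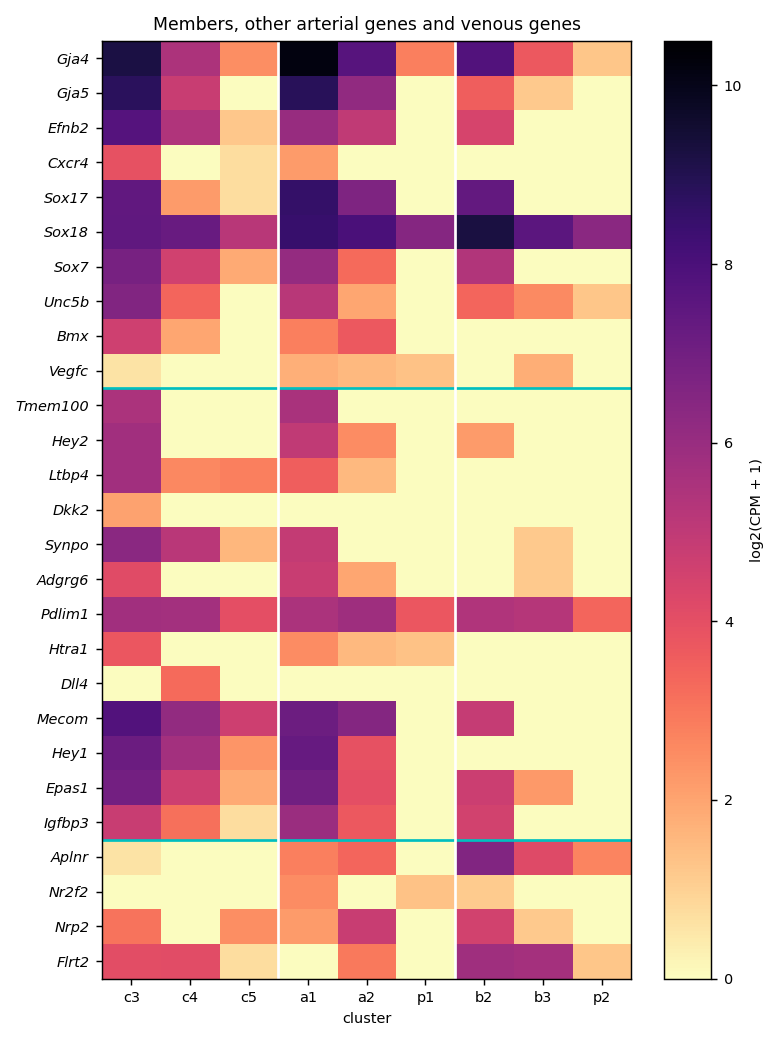
Levels in the 9 clusters as log2(CPM + 1) of the summed counts for the 10 genes (top), the other 13 genes of the arterial signature (middle) and 4 venous genes (bottom), to be read along a gene rather than between genes. The rows of Gja4, Gja5, Efnb2, Sox17, Sox7 and Unc5b fade from c3 to c5, from a1 to p1 and from b2 to p2, while Sox18 keeps a level in all 9 clusters.

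The number of members read in a cell set the early arterial clusters apart. A c3 cell held counts of 4 to 9 of the 10 genes with a median of 6, an a1 cell 3 to 7 with a median of 5, and a b2 cell 1 to 6 with a median of 2. At least 4 members were read in all 29 c3 cells, 20 of 23 a1 cells, 8 of 29 a2 cells, 7 of 20 c4 cells and 5 of 25 b2 cells, and in no cell of c5, b3, p1 or p2. At an equal 18000 counts per cell the expected number was 5.47 in c3, 4.90 in a1, 2.49 in b2, 2.31 in a2 and 1.89 in c4, and below 1 in the other 4. Cells with none of the genes were found in c5 (8 of 21), p2 (7 of 20), p1 (4 of 17), b3 (4 of 24) and a2 (3 of 29). Without Sox18 the summed level of the other 9 genes was 1673 CPM in c3, 2164 CPM in a1 and 468 CPM in b2, against 9.94 CPM in c5, 7.62 CPM in p1 and 2.73 CPM in p2. In b2 2 cells stood out: cell 20 held 6 members at 2234 CPM and cell 23 held 5 members at 2940 CPM.

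**Figure D3:**
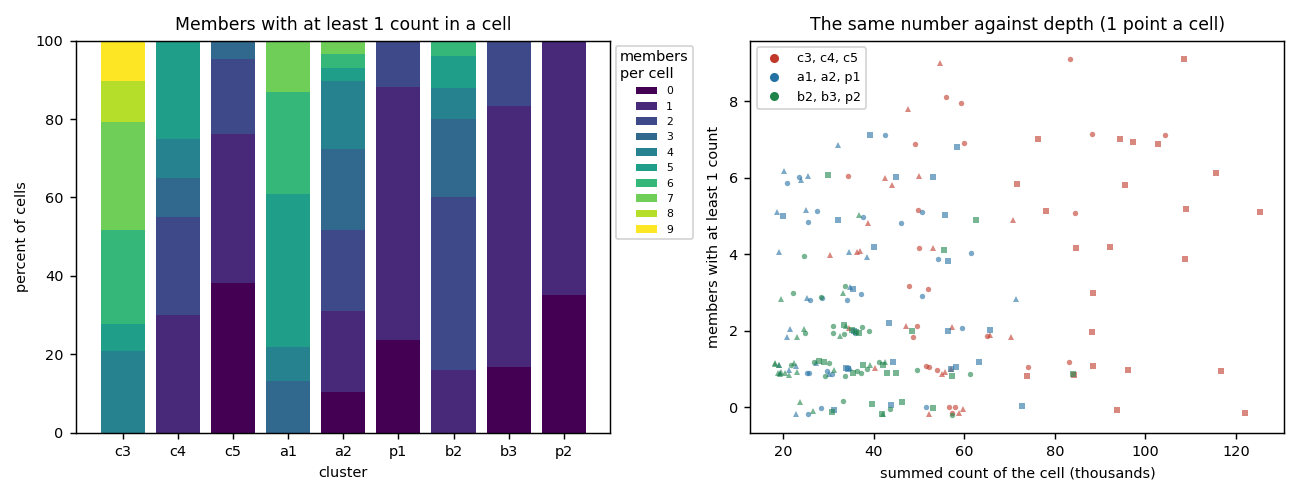
Left, percent of the cells of each cluster in which a given number of the 10 genes had at least 1 estimated count; right, that number against the total estimated count of the cell, with 1 point for each cell, shifted slightly up or down so that points can be told apart. The c3 cells hold 4 to 9 genes and the a1 cells 3 to 7, and no c5, b3, p1 or p2 cell holds more than 3.

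The AGM and YS artery populations were compared first, to ask whether the intra-embryonic and the extra-embryonic arterial HE carry the same arterial genes. Efnb2, Unc5b, Sox7 and Cxcr4 were higher in HE-AGM and Sox17, Gja4 and Sox18 were higher in HE-YSA, with Gja5 at nearly the same level. Efnb2 stood at 141 CPM in HE-AGM and 45.1 CPM in HE-YSA, 3.11-fold higher (log2 ratio 1.64 [1.30, 1.99]), and the runs gave log2 ratios of 1.54, 1.68 and 1.68. Unc5b was 3.40-fold higher (log2 ratio 1.77 [1.23, 2.34], from 0.99 to 2.20 in the runs) and Sox7 2.19-fold higher (log2 ratio 1.13 [0.74, 1.55], from 0.52 to 1.74 in the runs). Cxcr4 had 27 counts against 3, a log2 ratio of 2.36 [0.66, 4.73]. Sox17 was 2.20-fold higher in HE-YSA (log2 ratio -1.14 [-1.35, -0.93]), with runs at -0.41, -2.44 and -0.99, so that the difference was largest in run 2. Gja4 and Sox18 were 1.70-fold and 1.83-fold higher in HE-YSA, and the log2 ratio of Gja5 was 0.17 [0.00, 0.33]. Bmx had a log2 ratio of 0.64 [-0.17, 1.51], which became 1.78 without a2 cell 1. By the 2-fold limit 4 members were higher in HE-AGM, where 32.7% of 11972 genes with at least 20 counts were higher, and 2 were lower, Sox17 and Vegfc, the latter with 1 count against 4 (-2.81, and -1.20 without the c3 cell that held it), where 13.3% of genes were lower. The members' median log2 ratio of 0.40 lay beside an all-gene median of 0.32, with single genes on both sides.

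The plexus population differed more from HE-AGM, a comparison that sets the HE of an embryonic artery against that of the YS plexus. Gja5 was 45.6-fold higher in HE-AGM, 273 CPM against 5.98 CPM (log2 ratio 5.51 [4.63, 6.58]), and without b2 cell 20, which held 9 of the 10 HE-YSP counts, the log2 ratio was 8.81. Efnb2 was 13.8-fold higher (log2 ratio 3.79 [3.09, 4.58], 5.04 without b2 cell 20), Unc5b 8.20-fold higher, Sox7 3.74-fold higher (log2 ratios 3.04 and 1.90, and 3.76 and 2.69 without b2 cell 23) and Gja4 3.04-fold higher (log2 ratio 1.61 [1.39, 1.83], 2.28 without b2 cell 23). Bmx and Cxcr4 had no count in HE-YSP and were at least 8.20-fold and at least 4.52-fold higher in HE-AGM, against a floor of 3 counts over the population. Sox17 had a log2 ratio of 0.26 [-0.03, 0.56], and it was -0.52 with E10.5 YS cells alone. Sox18 was 2.46-fold higher in HE-YSP (log2 ratio -1.30 [-1.46, -1.13], from -1.43 to -1.20 in the runs). In all 7 of 9 members with a ratio were higher by 2-fold against 35.0% of genes, 1 was lower against 14.5%, and the median was 2.18 against 0.39 for all genes.

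Within the yolk sac the artery population stood above the plexus for the connexins and Efnb2. Depth was comparable and the sort the same, but the plexus cells held more of E9 and fewer of E10.5. Gja5 was 40.7-fold higher in HE-YSA (log2 ratio 5.35 [4.46, 6.42]), Gja4 5.18-fold (2.37 [2.16, 2.60]), Efnb2 4.44-fold (2.15 [1.39, 2.99]), Sox17 2.64-fold (1.40 [1.12, 1.69]) and Unc5b 2.41-fold (1.27 [0.28, 2.36]). Sox17 was past 2-fold in run 2 and not in the others (log2 ratios 0.73, 3.47 and 0.95), and its log2 ratio was 0.84 without run 2. Gja4 and Gja5 kept this direction in every run, at log2 ratios from 1.69 to 3.78 and from 4.00 to 6.97. Without the cell that counted most (b2 cell 20 or 23) the log2 ratios were 8.64 for Gja5, 3.05 for Gja4, 3.40 for Efnb2 and 1.99 for Unc5b. Bmx was at least 5.26-fold higher, and its log2 ratio was 1.25 without a2 cell 1. Sox7 had a log2 ratio of 0.77 [0.15, 1.41], or 1.55 without b2 cell 23, and Sox18 one of -0.42 [-0.59, -0.26], lower in HE-YSA in runs 1 and 3 and not in run 2 (0.13). Of 9 members with a ratio 6 were higher by 2-fold against 12% of 9804 genes and 0 were lower against 9.70%, with a median of 1.40 against 0.01 for all genes. Leaving out 1 run at a time gave 4 to 7 members higher. HE-AGM is shared by the first 2 of these comparisons, and the last uses the other population of each, so none is independent of the others. For a member with counts in every population, the HE-YSA over HE-YSP ratio follows from the other 2.

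**Figure D4:**
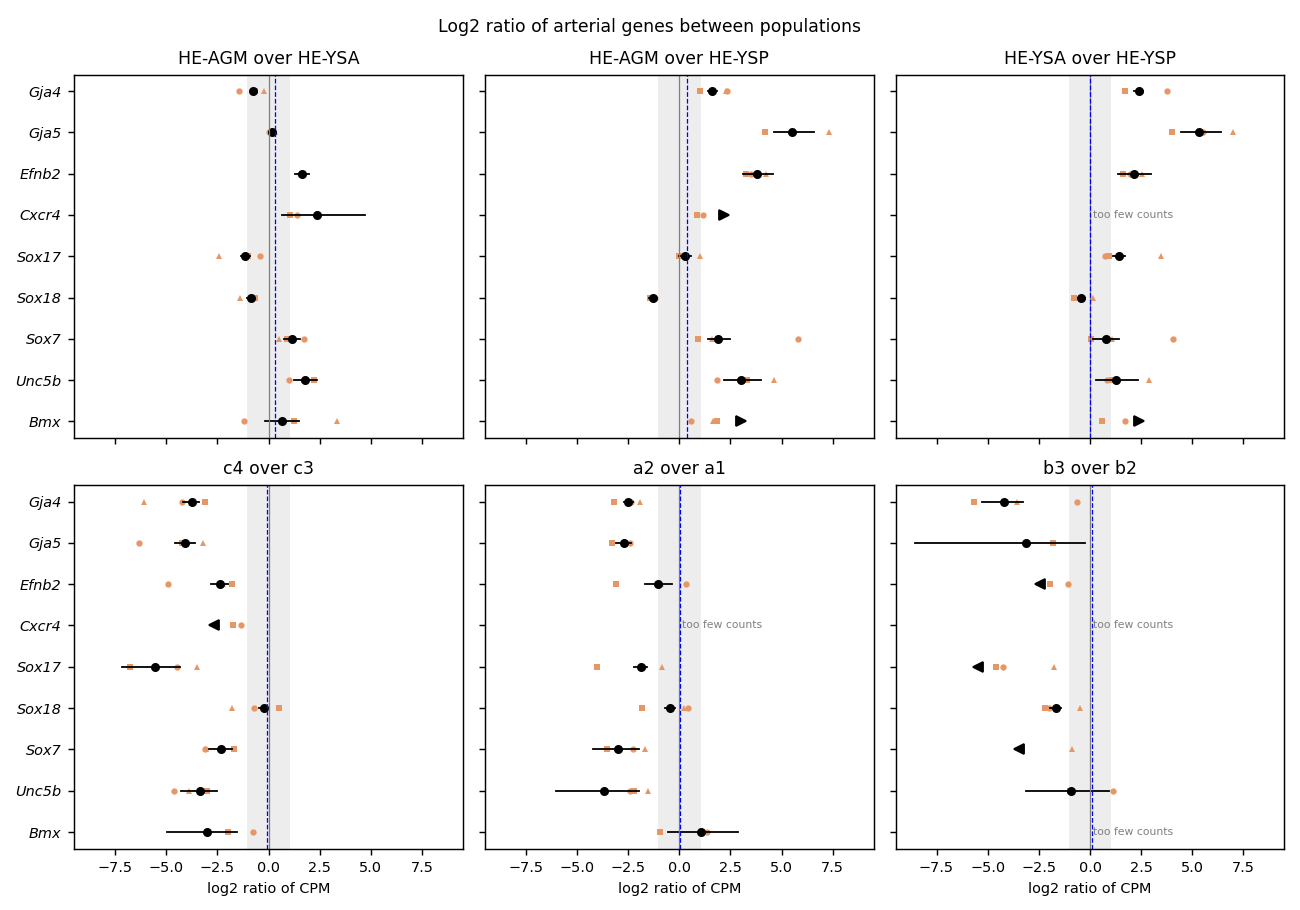
Log2 ratio of 9 of the genes (Vegfc left out) in 6 comparisons, with the pooled value and its counting interval in black, bounds against 3 counts as black arrowheads, single runs in orange (circles, triangles and squares for runs 1, 2 and 3), the all-gene median as a blue dashed line and ratios under 2-fold in the grey band. In HE-YSA over HE-YSP the pooled values reach 5.35 for Gja5 and 2.37 for Gja4 with Sox18 at -0.42, and in the late over early comparisons most points lie left of the band, with Sox18 inside it in c4 over c3 and a2 over a1.

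From early to late HE, the step in which endothelial cells turn to blood, most of the arterial genes were lower in the AGM, the YS arteries and the plexus. In the AGM (c4 over c3) Sox17 was 46.9-fold lower, Gja5 16.9-fold, Gja4 13.6-fold, Unc5b 10.1-fold, Efnb2 5.17-fold and Sox7 4.95-fold, and Cxcr4 at least 6.45-fold lower. Sox18 was an exception at a log2 ratio of -0.22 [-0.47, 0.03], with runs at -0.73, -1.78 and 0.52. Without single c4 cells that held much of the remaining counts the log2 ratios were -6.78 for Sox17 (cell 5), -4.82 for Gja5 (cell 11) and -3.06 for Sox7 (cell 19), further from 0 than with them. In all 8 of 9 members were lower by 2-fold against 17.6% of 10682 genes and 0 were higher against 9.23%. Their median was -3.01, that of all genes -0.07, and that of the 8 endothelial markers -1.17.

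In the YS arteries (a2 over a1) Gja5 was 6.57-fold lower (log2 ratio -2.72 [-3.09, -2.36]), Gja4 5.66-fold (-2.50 [-2.72, -2.29]) and Sox17 3.68-fold (-1.88 [-2.21, -1.56]), and each was lower in every run. Unc5b went from 30 counts in a1 to 3 in a2, and Sox7 was 8.02-fold lower, with a log2 ratio of -3.80 without a2 cell 13. Efnb2 was 2.03-fold lower (-1.02 [-1.70, -0.37]) but had a log2 ratio of 0.33 in run 1, against -0.89 and -3.10 in the others. Sox18 had a log2 ratio of -0.45 [-0.69, -0.21] and was lower in run 3 and not in runs 1 and 2. The 1 member higher by 2-fold was Bmx (1.04 [-0.54, 2.88]), whose log2 ratio was -1.03 without a2 cell 1. In all 6 of 8 members were lower against 11.9% of 7642 genes and 1 was higher against 11.6%. The median was -2.19 beside 0.03 for all genes and -0.83 for the endothelial markers.

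Of the plexus cells used, 7 of 24 in b3 and 13 of 25 in b2 were of E10.5, so the late cluster held fewer cells of that stage. In the plexus (b3 over b2) Gja4 was 18.4-fold lower, and without b3 cell 1, which held all of its b3 counts, the log2 ratio was -5.87 instead of -4.20. Sox17, Sox7 and Efnb2 had no count in b3 and were at least 44.7-fold, at least 10.9-fold and at least 5.47-fold lower, the bounds being -2.72 on the log2 scale for Sox7 without b2 cell 23 and -1.22 for Efnb2 without b2 cell 20. Sox18 was 3.20-fold lower (log2 ratio -1.68 [-1.94, -1.42]), in every run. Gja5 had 9 counts in 1 b2 cell against 1 count (-3.12 [-8.57, -0.27], and -1.47 without b3 cell 14). Unc5b was at -0.95 [-3.13, 0.95], and at 0.36 without b2 cell 23. Of 7 members with a ratio 6 were lower by 2-fold against 13.2% of 7084 genes and 0 were higher against 13.7%, with a median of -3.12 beside 0.09 for all genes and -0.94 for the endothelial markers.

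The last step, from late HE to c5 or to the progenitors, left Sox18 as the one member still read in more than 3 cells of a cluster. Over c4, c5 was at least 13.4-fold lower in Gja5, 30.9-fold lower in Efnb2 (57 counts against 2), 9.46-fold lower in Gja4, 8.69-fold lower in Sox7 and 4.20-fold lower in Sox18 (log2 ratio -2.07 [-2.53, -1.63]). In this step 7 of 8 members were lower by 2-fold against 15.8% of 9623 genes and 0 were higher against 10.3%. Over a2, p1 was 33.5-fold lower in Gja4, at least 21.99-fold lower in Sox17, at least 15.4-fold lower in Gja5 and 3.00-fold lower in Sox18, with 6 of 7 members lower against 16.8% of 7130 genes and 0 higher against 10.7%. Over b3, p2 was 2.42-fold lower in Sox18 (log2 ratio -1.27 [-1.73, -0.83], from -1.37 to -1.06 in the runs), and with Gja4 at 10 counts against 1 and Unc5b at 4 against 1 all 3 members with a ratio were lower against 12.7% of 6639 genes, and 0 were higher against 8.57%. Removing the cell that counted most moved several of these sparse values: for c5 the log2 ratio of Gja4 went from -3.24 to -4.96, of Sox7 from -3.12 to -5.07, of Efnb2 from -4.95 to -5.90 and the Gja5 bound from -3.74 to -3.00, for p1 that of Gja4 went from -5.06 to -6.96, and for p2 those of Gja4 and Unc5b went from -3.16 to -1.51 and from -1.84 to -0.18. The medians were -2.78 for c5, -2.76 for p1 and -1.84 for p2, and those of the endothelial markers in the same steps were -1.48, -0.66 and -1.59. The 20 counts asked of background genes were reached by 9 members in both comparisons with HE-AGM, by 7 in HE-YSA over HE-YSP, by 9, 7 and 4 in the steps to c4, a2 and b3, and by 5, 5 and 1 in the steps to c5, p1 and p2.

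Among genes with more than 1 transcript model, Gja5 and Sox17 differed in isoform use between the arterial HE populations. Reads were assigned to models by the authors' estimation, which can divide a read between models that share sequence. Gja5-201 and the short model Gja5-202 share a first exon (chr3:97032416-97032485), after which Gja5-202 has a further noncoding exon of 57 bases (chr3:97037722-97037778) before the coding exon, of whose 1074 coding bases the model of 405 bases contains 245. Gja5-202 took 30.7% [27.7, 33.8] of 909 Gja5 counts in HE-AGM and 67.2% [62.8, 71.5] of 464 counts in HE-YSA. The runs did not overlap, as those of HE-AGM gave 26.6%, 29.7% and 34.1% and those of HE-YSA gave 63.5%, 66.7% and 71.6%. The mean over cells was 21.4% and 65.0%. The early clusters had 31.8% in c3 and 63.5% in a1, and the late ones 5.41% of 37 counts in c4 and 86.7% of 75 counts in a2. Its share in HE-YSP rests on the 9 counts of b2 cell 20, 7 of them Gja5-202, and 1 count in b3. Gja5-202 was read in 15 HE-AGM cells and 25 HE-YSA cells.

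**Figure D5:**
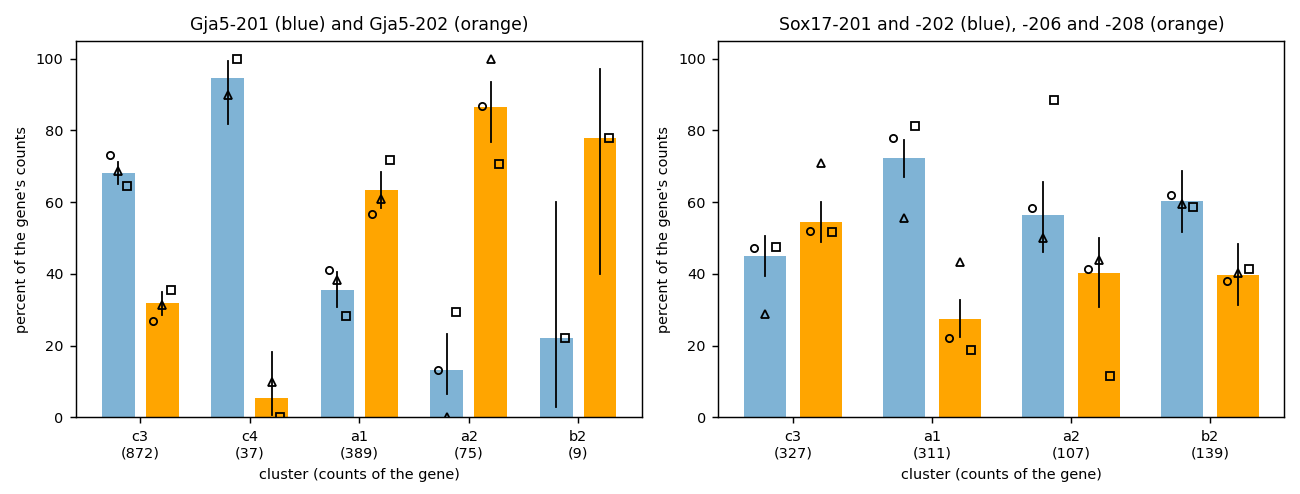
Percent of a gene's summed counts on each isoform of Gja5 (left) and isoform group of Sox17 (right) by cluster, with the gene's counts under each cluster, bars for the summed cells, lines for exact 95% binomial intervals and circles, triangles and squares for runs 1, 2 and 3. Gja5-202 (orange) holds 31.8% of Gja5 in c3 and 63.5% in a1, and the group without the start codon exon (orange) holds 54.5% of Sox17 in c3 and 27.3% in a1.

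Sox17 models fall into those that contain the exon chr1:4493100-4493466, which holds the start codon of Sox17-201 and Sox17-202, and Sox17-206 and Sox17-208, which pass over it and have 1062 and 873 coding bases against 1257. The letters around the splice into the last exon are shown because they are what separates these models. Lower case gives the end of the exon before and capitals the first 30 bases of the last exon (chr1:4492639-4492668, minus strand, GRCm38).
Sox17-201 and Sox17-202, exon before ending at chr1:4493100-4493129: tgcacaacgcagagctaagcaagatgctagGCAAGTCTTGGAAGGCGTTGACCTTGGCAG
Sox17-206, exon before ending at chr1:4493772-4493801: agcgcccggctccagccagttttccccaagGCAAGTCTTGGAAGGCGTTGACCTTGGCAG
The skipping models took 53.8% [48.4, 59.4] of 332 Sox17 counts in HE-AGM, 30.6% [26.2, 35.3] of 418 in HE-YSA and 39.8% [31.4, 48.2] of 139 in HE-YSP. In c3 the runs gave 51.9%, 71.1% and 51.7%, and in a1 22.03%, 43.3% and 18.7%, so that every c3 run lay above every a1 run, while a2 ranged from 11.6% to 43.8% and b2 from 37.9% to 41.5%. Sox17-201 and Sox17-202 together took 45.6%, 68.3% and 60.2%. Of 890 Sox17 counts 545 were in estimates that are not whole, that is, in estimates that include some divided read, which limits how far single models can be told apart. How many reads were divided is not given by this number.

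The remaining members gave less. Unc5b-201 and Unc5b-202 took 83.0% and 15.5% of counts in HE-AGM and exactly 50% each of the 33 counts in HE-YSA in every run, a value at which the estimate had not separated them. Bmx-201 and Bmx-202, which begin at different first exons (chrX:164250282-164250368 and chrX:164258048-164258193), had 22 and 27 counts in HE-AGM and 3 and 15 in HE-YSA. All Cxcr4 counts were on Cxcr4-201, and Gja4, Sox18 and Sox7 have 1 model each.

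The other 13 genes of the study's arterial signature were mostly higher in both arterial HE populations than in the plexus. In HE-AGM over HE-YSA 4 of the 13 with a ratio were higher by 2-fold and 0 lower, against 32.7% and 13.3% of all genes. In HE-AGM over HE-YSP 10 of 13 were higher and 0 lower, against 35.0% and 14.5%. In HE-YSA over HE-YSP 9 of 11 were higher and 0 lower, against 12% and 9.70%. The medians in this order were 0.46, 3.46 and 2.94. Hey1, a Notch target that represses venous fate, stood at 141 CPM in c3, 154 CPM in a1 and 0 in b2. Mecom, a transcription factor of arterial endothelium and blood stem cells, stood at 222, 137 and 28.2 CPM in the same clusters, and Epas1, a hypoxia-inducible factor, at 123, 127 and 24.7 CPM. From early to late HE 10 of 13 were lower in the AGM, 9 of 11 in the YS arteries and 3 of 4 in the plexus, against 17.6%, 11.9% and 13.2% of all genes. In these steps 1 was higher, against 9.23%, 11.6% and 13.7% of all genes. It was the Notch ligand gene Dll4 in the AGM, with 12 counts in 1 c4 cell and 0 in c3.

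Partners and paralogues of the members were mixed. Of 20 such genes 15 had a ratio in HE-AGM over HE-YSA, with 3 higher and 2 lower, against 32.7% and 13.3% of all genes. In HE-AGM over HE-YSP 14 had a ratio, with 5 higher and 2 lower, against 35.0% and 14.5%. In HE-YSA over HE-YSP 11 had a ratio, with 5 higher and 3 lower, against 12% and 9.70%. Ephb4, the venous receptor of ephrin-B2, was read in every cluster but p1, at 111 CPM in c3, 46.4 CPM in a1 and 67.0 CPM in b2, and so did not follow its ligand across the YS populations (log2 ratio of HE-YSA over HE-YSP -0.19 [-0.68, 0.30]). In the AGM Gja1, which encodes connexin 43, stood at 40.2 CPM in c3, 40.3 CPM in c4 and 53.0 CPM in c5, unlike Gja4 and Gja5. It was lower at the end of the YS series, at 26.2, 32.9 and 4.57 CPM in a1, a2 and p1 and 25.9, 2.44 and 1.37 CPM in b2, b3 and p2. Kdr, the main VEGF receptor, was at 109 CPM in c3 and 149 CPM in b2. Btk, a Tec-family kinase of blood cells, was at 0 in c3, where its paralogue Bmx was highest. It stood at 30.5 CPM in c5, 51.8 CPM in p1 and 64.2 CPM in p2, where Bmx had no count.

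Of 4 venous comparators 1 was higher and 3 lower in HE-AGM over HE-YSA, against 32.7% and 13.3% of all genes. In HE-AGM over HE-YSP 0 of the 3 with a ratio were higher and 3 lower, against 35.0% and 14.5%. In HE-YSA over HE-YSP 1 was higher and 2 lower, against 12% and 9.70%. The 1 higher was Nr2f2, on 4 counts in 1 a1 cell against 1 count in b2, and the 2 lower were Aplnr and Flrt2. The only gene of this list higher in HE-YSA therefore rested on 1 cell. Nr2f2, the venous regulator, was close to absent, with 4 counts in 1 cell of a1, 1 count in b2, 1 in p1 and none elsewhere, and Nrp2, a coreceptor of venous and lymphatic endothelium, stood at 26.3 CPM in a2 and 22.3 CPM in b2. Aplnr, the apelin receptor of veins, stood at 94.0 CPM in b2, 5.95 CPM in a1 and 0.52 CPM in c3 (log2 ratio of HE-YSA over HE-YSP -2.84 [-3.73, -2.04]), and Flrt2 at 55.2, 0 and 15.5 CPM in the same clusters.

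Profiles over the 9 clusters were compared with the mean profile of the 10 genes as log2(CPM + 1), as a description, among 9134 genes with at least 20 CPM in at least 1 cluster. The most alike were Tmem254 (Pearson r of 0.983), Nrp1 (0.982), Sult1a1 (0.979), Meis2 (0.969), Epas1 (0.965), Mfge8 and Parva (0.962 each), Igfbp3 (0.960), Sncg (0.958) and Gm44249 (0.957). Nrp1, a coreceptor for VEGF and semaphorins, stood at 476, 47.5 and 0.66 CPM in c3, c4 and c5, at 209, 38.5 and 1.52 CPM in a1, a2 and p1 and at 64.6, 3.65 and 0 CPM in b2, b3 and p2. For single members the most alike gene was Tmem254 for Gja4 (0.976) and Gja5 (0.965), Gm56862 for Efnb2 (0.972), Parva for Sox17 (0.979), the tight junction gene Cldn5 for Sox18 (0.971), App for Sox7 (0.976), Gm29055 for Unc5b (0.972) and Akr1c14 for Bmx (0.964). The 9 points of a profile share libraries within each cluster and the depth gap between AGM and YS, and many genes compete for the highest r.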

How the data were processed

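Complementary DNA of single sorted cells, amplified by a small-volume Smart-seq2 protocol, was sequenced on a PromethION. The authors basecalled with Dorado, cleaned reads with bbduk, YACRD and porechop, mapped what was left on GENCODE transcripts (Minimap2 2.26, up to 10 alignments per read) and ran NanoCount, R 4.3.0 and DESeq2 1.40.2 per the submitters' processing notes. As deposited, the estimated counts are raw and partly fractional, since a read can be divided between transcripts. The deposited TPM table holds these estimates after scaling each cell to one common total, and it served only as a check on the counts.

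All 10 genes were named. The members, the lists of partners, arterial, venous and cell type genes, and the tests were chosen with earlier results of these data known. Groups follow the labels. Cells under the median total of 38780 minus 1 scaled median absolute deviation were left out (13 of 221), after the filter in the methods. Counts were summed over cells per cluster and divided by summed totals (CPM). Ratios were counted at 2-fold, with 3 counts as the floor for a group at 0, "at least" marking such bounds, and no ratio where both groups had 3 counts or fewer. The background was every gene with at least 20 counts in both groups together. The summing and ratio steps were tested on simulated counts. Exons came from GENCODE M21 (GRCm38), in which all 27 transcripts were found with equal length. Of the value columns 0 were without a sample. Alternatives covered the cell filter, size factors, means over cells of the CPM, depth, runs, stage, project, added counts and single cells. Size factors came from DESeq2 1.42.0 under R 4.3.3, intervals from scipy 1.17.1, and figures from matplotlib 3.10.9, with Python 3.11.15, pandas 2.3.3 and numpy 2.4.6.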

Additional observations from a re-analysis of the deposited data

Results flagged for a closer look

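The 13 cells left out for a low total, which no comparison above uses, held 98222 estimated counts in all, and 3 of the 10 genes were read in them above the 3 counts that a count of 0 allows. Gja4 had 65 counts in 2 of these cells (662 CPM over the 13), Gja5 had 14 counts in 1 cell (143 CPM) and Sox18 had 36 counts in 5 cells (367 CPM). The other 7 genes had none. The cells come from several clusters, so these values belong to no group, and the differences were not tested.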

How the results depend on the processing

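Of 400 values of the comparisons under alternatives, 329 stayed within the limit of a change and 71 moved, and of the log2 ratios of single members 698 stayed, 263 moved and 3 turned direction from a value at or past 2-fold. A further 20 values changed sign from a ratio under 2-fold, in Sox17, Sox18, Sox7, Gja5, Unc5b, Bmx and Vegfc. The 3 were Bmx in a2 over a1 without run 1 (-2.48, with 1.68 as the highest value when 1 run was left out) and in run 3 alone (-0.93) and Efnb2 in a2 over a1 in run 1 alone (0.33). DESeq2 size factors in place of totals moved the all-gene median from 0.32 to 0.55 in HE-AGM over HE-YSA and from 0.39 to 0.64 in HE-AGM over HE-YSP, and turned no member's direction. Isoform shares stayed within their intervals in 143 of 179 values and detection shares in 179 of 180. No paired analysis was possible because no label pairs cells across clusters and no test was run. The rarest members limit these values: with few counts the members' median moves from one gene or bound to the next.

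Leaving out 1 run gave 1 to 2 members lower in HE-AGM over HE-YSA, a median of 1.43 to 2.27 in HE-AGM over HE-YSP, 4 to 7 members higher in HE-YSA over HE-YSP, 0 to 1 members higher in a2 over a1, medians of -3.16 to -1.23 in b3 over b2 and -3.27 to -2.47 in c5 over c4, and a median of -1.87 to -1.22 with 1 to 3 members lower in p2 over b3.

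In HE-AGM over HE-YSA 1 member was lower with a log-scale limit on totals or with totals from 30000 to 60000, and 0 in run 3 alone, where the median was 0.89. In HE-AGM over HE-YSP the median was 1.00 in run 3 alone, 1.39 with E10.5 YS cells and 2.98 with 0.5 counts added. In HE-YSA over HE-YSP it was 2.56 in run 2 alone, and in c4 over c3 -4.24 in run 1 alone. In a2 over a1 0 members were higher with the log-scale limit, size factors, the mean over cells, runs 2 or 3 alone, without cells that go against their labels, with totals from 30000 to 60000, with E10.5 cells or with 0.5 counts added, and the median was -3.15 in run 3 alone.

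In b3 over b2 the median was -1.09 in run 1 alone, with 1 member higher and 3 lower, -1.31 in run 2 alone with 2 lower, -2.22 in run 3 alone, -2.38 with totals from 30000 to 60000, -2.34 with E10.5 cells and -4.14 with 0.5 counts added. In c5 over c4 it was -2.19 both with size factors and with the mean over cells, -1.77 in run 1 alone with 4 lower, -2.18 in run 2 alone with 3 lower, -1.35 with totals from 30000 to 60000 with 2 lower, and -3.22 with 0.5 counts added. In p1 over a2 it was -1.44 in run 2 alone, -1.37 in run 3 alone with 3 lower, -1.79 with totals from 30000 to 60000 and -4.90 with 0.5 counts added. In p2 over b3 it was -2.07 with size factors, -1.31 in run 1 alone, -1.06 in run 2 alone with 1 lower, -1.37 in run 3 alone with 1 lower, -2.01 with totals from 30000 to 60000, -1.52 with E10.5 cells with 1 lower and -1.42 with 0.5 counts added.

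Both alternatives that leave out single cells were chosen after seeing the data. Without b2 cells 20 and 23 the median was 2.91 in HE-AGM over HE-YSP and -2.07 in b3 over b2. Without the cell with most counts of each member in each cluster it was 1.43 in HE-AGM over HE-YSA with 1 member lower, 2.65 in HE-YSA over HE-YSP, -3.66 in c5 over c4 and -1.40 in p2 over b3 with 1 lower, and 0 members were higher in a2 over a1. Fewer genes and cells were left in these alternatives, and the cause of the moves was not tested.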
